A study of Mus musculus with 6 samples.

Results

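The mitochondrial carrier family Slc25 was followed in RNA of mouse aortae, in rows of the deposited count table whose symbol is Slc25a and a number. The rule found 47 genes among the 55453 of the table, Slc25a4, Slc25a1 and Slc25a20 among them, and 42 of the 47 passed the filter on low counts. Of the other 5, Slc25a54 had no count in any of the 5 libraries, which allows up to 3 counts or 0.0890 to 0.119 CPM per library for counting error alone. Slc25a18, Slc25a21, Slc25a31 and Slc25a41 had 12 counts or fewer in each library and were not tested. Relatives that carry other symbols (Ucp1, Ucp2, Ucp3, Mtch1 and Mtch2) are outside the rule and are given beside it.

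The proteins of this family sit mostly in the inner mitochondrial membrane, which is closed to charged metabolites. Each moves a substrate across it, often in exchange for another: ADP for ATP, citrate for malate, acylcarnitine for carnitine, or amino acids and cofactors. In smooth muscle they link mitochondrial ATP to contraction, and in fat cells they connect mitochondrial citrate with lipid synthesis and fatty acids with their oxidation.

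The study deleted Srf, the gene of serum response factor, in smooth muscle cells. The 3 control mice were heterozygous and the 2 experimental mice homozygous for a floxed Srf allele, and all 5 carried Itga8-CreERT2, a tamoxifen-activated recombinase expressed under control of Itga8, an integrin gene of smooth muscle. All received 5 daily doses of 33 mg/kg tamoxifen, and the vessels, freed of adventitia and endothelium and frozen singly, date from 10 days after the final dose. The heterozygous mice are called controls here and the homozygous mice mutants. The control therefore lacks a copy of Srf in recombined cells, the labels do not state the ages of the mice, and homozygous replicate 1 was not analysed here.

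Library totals ranged from 26177821 to 34311855 counts, of which the 47 genes took 38180 to 65530. Srf stood at 56.1 to 68.3 CPM (counts relative to the scaled library total) in controls and at 45.0 and 38.6 CPM in mutants, with a log2 fold change of -0.59 (SE 0.122, edgeR adjusted p = 0.115); these gene counts include exons outside a deletion. The smooth muscle markers Acta2, Myh11, Tagln, Cnn1, Smtn and Lmod1 summed to 22268 to 23715 CPM in controls and to 13459 and 12887 CPM in mutants, so the labelled tissue was present in each. Markers of adjoining tissues were present too. The 10 adipocyte markers summed to 3127 to 4226 CPM in controls and to 5035 and 5193 CPM in mutants. The 8 brown adipocyte markers summed to 281 to 716 and to 1129 and 1050 CPM. The 12 skeletal muscle markers summed to 677, 328 and 12.5 CPM in control replicates 1, 2 and 3 and to 999 and 2728 CPM in mutant replicates 2 and 3, and Myh4 and Pvalb were at 0 in control replicate 3. That library stood apart by its near lack of these transcripts. Macrophage markers summed to 265 to 346 CPM in controls and to 416 and 553 CPM in mutants. Adventitial fibroblast markers summed to 1157 to 1479 and to 1525 and 1655 CPM, and endothelial markers to 687 to 889 and to 1028 and 359 CPM. Cardiomyocyte markers summed to 407 to 542 and to 469 and 495 CPM. Most of that sum was Ryr2, at 346 to 519 CPM in controls and at 434 and 403 CPM in mutants. The 9 tested cardiomyocyte markers had positive log2 fold changes (47.2% of all genes), with a median of 0.86. Of them, 1 was higher at an unadjusted p under 0.05 in edgeR (9.04% of all genes).

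Upstream sequences are shown for 4 members, 3 of those that DESeq2 called higher (below), and Slc25a23, the 1 of the 36 members searched with a CArG box, the motif bound by serum response factor. They end at the RefSeq start site, or before the first exon base of GENCODE release 21 where that lies further upstream, on GRCm38.p6. Slc25a35 and Slc25a51 have no entry in that table. Capitals mark matches to the motifs searched.
Slc25a1 (chr16:17928220-17928469, minus strand): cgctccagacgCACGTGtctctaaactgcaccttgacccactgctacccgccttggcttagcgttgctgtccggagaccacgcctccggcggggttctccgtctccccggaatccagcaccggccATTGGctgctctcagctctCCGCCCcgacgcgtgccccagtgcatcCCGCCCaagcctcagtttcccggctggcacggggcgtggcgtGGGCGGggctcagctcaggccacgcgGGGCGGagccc
Slc25a20 (chr9:108661886-108662087, plus strand): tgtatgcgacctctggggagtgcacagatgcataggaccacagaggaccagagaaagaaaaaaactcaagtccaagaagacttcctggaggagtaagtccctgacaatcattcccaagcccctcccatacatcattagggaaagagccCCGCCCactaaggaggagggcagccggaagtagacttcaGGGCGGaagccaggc
Slc25a48 (chr13:56438105-56438354, plus strand): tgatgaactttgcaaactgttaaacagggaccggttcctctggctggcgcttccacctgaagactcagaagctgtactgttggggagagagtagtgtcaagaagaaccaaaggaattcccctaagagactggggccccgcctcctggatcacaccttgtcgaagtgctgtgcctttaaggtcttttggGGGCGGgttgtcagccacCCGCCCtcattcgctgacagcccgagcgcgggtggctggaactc
Slc25a23 (chr17:57059864-57060113, minus strand): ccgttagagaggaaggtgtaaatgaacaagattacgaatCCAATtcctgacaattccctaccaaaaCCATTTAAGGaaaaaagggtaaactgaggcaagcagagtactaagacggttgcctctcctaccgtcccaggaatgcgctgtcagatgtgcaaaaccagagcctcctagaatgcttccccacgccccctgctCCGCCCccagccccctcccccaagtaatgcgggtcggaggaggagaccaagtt

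The RefSeq table held promoters for 36 of the 47 members, and the 250 bases upstream of every listed start were searched on both strands. The GC box GGGCGG was found in 25 of the 36 members and in 60.9% of the 11790 tested genes with a promoter. The CCAAT box CCAAT was found in 18 of 36 against 40.0%, and the E-box CACGTG in 7 of 36 against 9.40%. Slc25a1 held all 3 of these, Slc25a20 and Slc25a48 the GC box alone. The CArG box was in 1 of 36 members against 1.47% of tested genes, 184 bases upstream of a start of Slc25a23, as CCATTTAAGG.

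Motifs of metabolic regulators were searched in the same windows. TCAAGGTCA, an element of estrogen-related receptors, and the core site of nuclear respiratory factor were in 0 of 36 members against 0.280% and 1.71% of tested genes. TCACNCCAC, a sterol regulatory element, was in 1 of 36 (Slc25a18) against 1.26%, and AGGTCA, the hexamer within the first of these motifs, in 4 of 36 against 13.2%. A match here describes letters in a window and is not a bound site.

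Levels of different genes were compared per length, as TPM (counts divided by the merged exon length, scaled to the same sum in each library). The carriers of ATP, phosphate and citrate dominated the family. Slc25a4, the ADP/ATP carrier of muscle and heart, stood highest at 337 ± 58.4 TPM in controls (SD, n = 3) and 362 ± 75.6 TPM in mutants (SD, n = 2). Slc25a1, the citrate carrier, was at 183 ± 28.8 and 291 ± 44.4 TPM, and Slc25a5, the ADP/ATP carrier of most tissues, at 181 ± 41.9 and 213 ± 10.2 TPM. In the heterozygous libraries these last 2 genes did not differ beyond their spread. Slc25a3, the phosphate carrier that feeds ATP synthase, followed at 112 ± 8.48 and 114 ± 16.9 TPM. Together these 4 genes held 46.5% to 51.1% of the family's TPM in the 5 libraries. Their order rests on merged exon length, 5550 bases for Slc25a3 and 2353, 2164 and 1646 for Slc25a4, Slc25a1 and Slc25a5. Without division by length, Slc25a4 was still highest in controls, at a mean of 220 CPM. Slc25a3, at 173 CPM, then lay above Slc25a1 (110 CPM) and Slc25a5 (82.7 CPM).

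Below them came Slc25a51, a carrier of NAD, at 72.8 ± 9.41 TPM in controls (SD, n = 3), and Slc25a39, a carrier of glutathione, at 68.7 ± 13.6 TPM. Their ranges overlapped, as did those of most neighbours further down the order. Of the 47 genes, 7 lay under 1 TPM in the heterozygous mean. They included Slc25a13, an aspartate/glutamate carrier at 0.507 ± 0.248 TPM, while its paralog Slc25a12 stood at 19.7 ± 2.59 TPM. Slc25a31, the ADP/ATP carrier of testis, had 6, 6 and 3 counts in controls and 1 count in each homozygous library. The first 7 places of the order were the same genes in both groups. Slc25a20, the acylcarnitine carrier, stood at place 13 in controls and at place 8 in the homozygous mean.

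**Figure D1:**
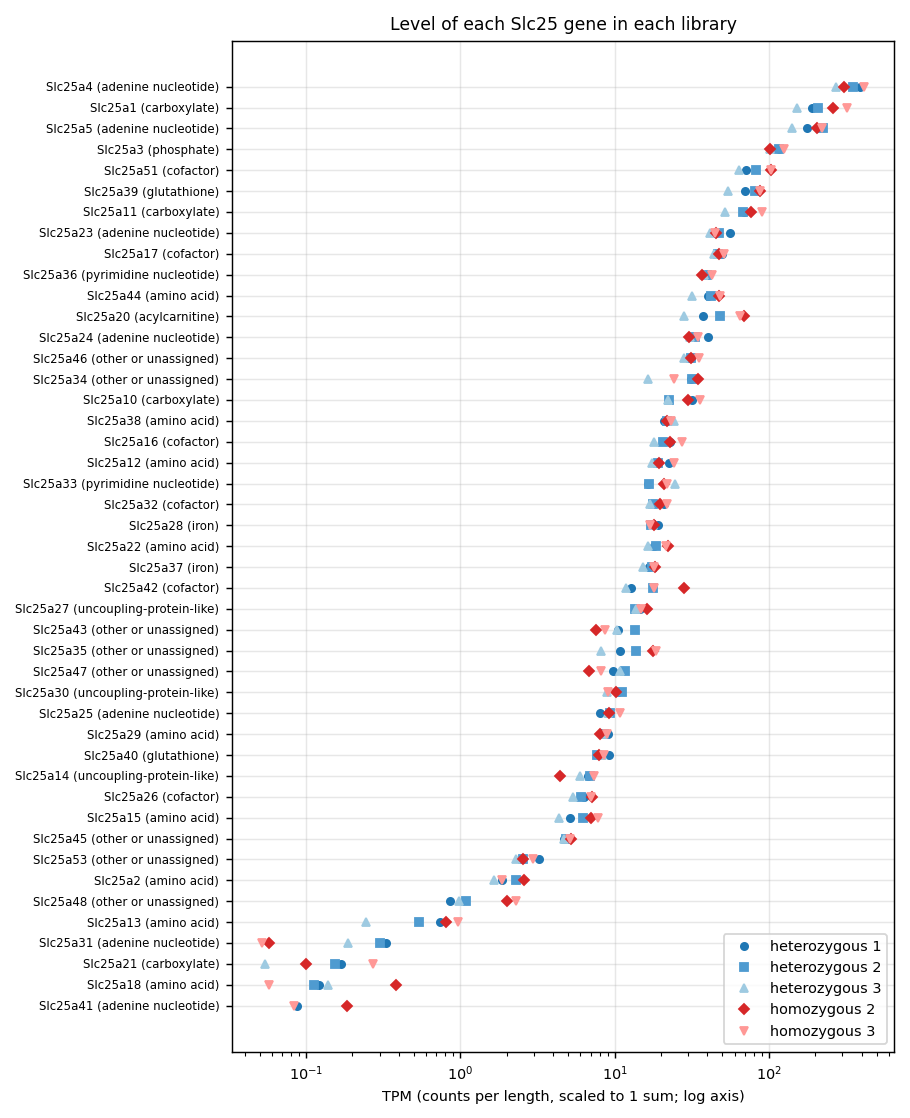
TPM (log axis) of 45 Slc25 genes with a count, 1 symbol per library, ordered by the heterozygous mean and labelled with the substrate group. Slc25a4 is highest at a heterozygous mean of 337 TPM, and the symbols of the 5 libraries lie close together for most genes; zeros are not drawn.

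Between genotypes, the family lay mostly on the homozygous side, by small amounts. The median log2 fold change, homozygous over heterozygous, was 0.18 over the 42 members tested and -0.02 over all 18192 genes tested. Of the 42, 33 had a positive fold change, 78.6% against 47.2% of all genes. The 2 groups did not overlap, with the homozygous libraries higher, in 21 members, 50% against 17.4% of all genes, and with the homozygous libraries lower in 2 members against 18.2% of all genes.

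No member passed the test across all genes. edgeR's quasi-likelihood test called 0 of 42 at an adjusted p under 0.05, where it called 0% of all genes, and limma-voom also called 0 of 42. At an unadjusted p under 0.05 edgeR gave 14 members higher (9.04% of all genes) and 2 lower (6.75% of all genes). DESeq2 called 5 of the 41 members to which it gave an adjusted p higher (3.33% of all genes) and 0 lower (2.61% of all genes): Slc25a1, Slc25a20, Slc25a35, Slc25a48 and Slc25a51. With no low-count filter, edgeR called 7 of 46 members (4.65% of all genes), the same 5 genes with Slc25a11 and Slc25a42. The count of 14 was 9 without mutant replicate 2 (6.47% of all genes) and 8 without mutant replicate 3 (4.85% of all genes), with the lone mutant assumed to vary like the others. It was 12, 14 and 13 without control replicates 1, 2 and 3 (8.6%, 8.93% and 9.59% of all genes).

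Adipocyte and brown adipocyte markers differed in the same direction, with 8 of 10 and 8 of 8 markers higher at an unadjusted p under 0.05 (Ucp1 is 1 of these 8). The same held for 8 of 10 macrophage and 7 of 12 skeletal muscle markers, while 6 of 6 smooth muscle markers were lower. At that p, 9.04% of all genes were higher and 6.75% lower. Mitochondrially encoded RNA took 3.95% to 5.71% of counts in controls and 7.95% and 7.36% in mutants. The part of these tissues in the Slc25 values was not tested. In bulk aorta a change in the number of cells of a type and a change in RNA per cell cannot be told apart.

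**Figure D2:**
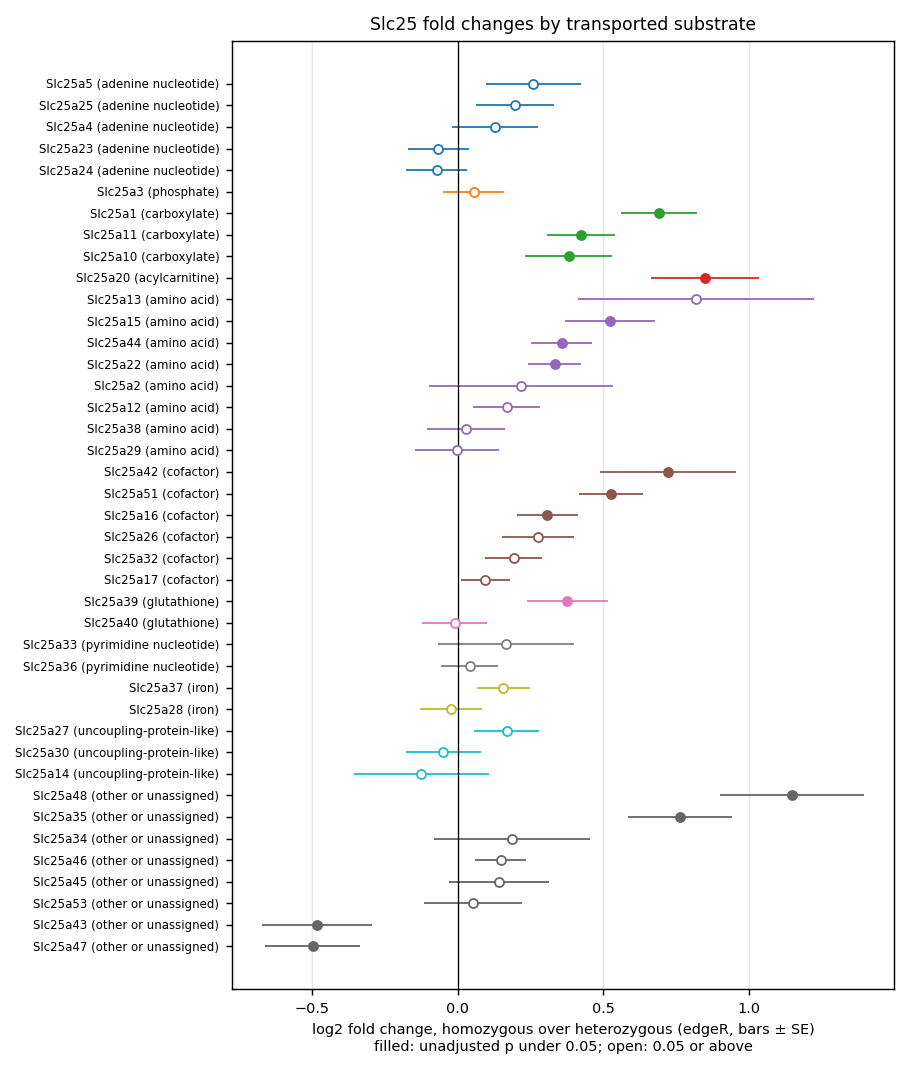
log2 fold change (homozygous over heterozygous, bars ± SE) of 41 tested Slc25 genes, grouped and coloured by substrate, with filled symbols at an unadjusted p under 0.05. The 3 carboxylate carriers and Slc25a20 lie above 0 with filled symbols, the 5 adenine nucleotide carriers lie between -0.07 and 0.26 with open symbols, and Slc25a43 and Slc25a47 are the 2 filled symbols below 0.

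The carriers of carboxylic acids were higher in mutants in 3 of 3 tested members at an unadjusted p under 0.05 (9.04% of all genes). Their median log2 fold change was 0.42. Slc25a1 exports citrate from mitochondria, where it is the source of cytosolic acetyl-CoA for fatty acid and sterol synthesis (GRCm38 chromosome 16, 17925223 to 17928219). It stood at 108, 124 and 98.1 CPM in control replicates 1, 2 and 3 and at 162 and 194 CPM in mutant replicates 2 and 3. Both homozygous libraries lay above the 3 heterozygous ones. Its log2 fold change was 0.69 (SE 0.131, edgeR adjusted p = 0.107, DESeq2 adjusted p = 0.000625), and 0.56 to 0.81 with each library left out.

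Slc25a11 exchanges malate for 2-oxoglutarate as a step of the malate-aspartate shuttle. It was at 38.8, 39.9 and 32.8 CPM in controls and 46.8 and 52.9 CPM in mutants (log2 fold change 0.42, SE 0.116, edgeR adjusted p = 0.167). Of its exonic bases, 8.92% overlap Rnf167 on the other strand, whose own log2 fold change was -0.06. Slc25a10, which exchanges malate or succinate for phosphate, gave 0.38 (SE 0.149, edgeR adjusted p = 0.282), and its homozygous libraries also lay above the heterozygous ones, though at 29.1 CPM control replicate 1 was close to mutant replicate 2 at 29.7 CPM. Of the exonic bases of Slc25a10, 6.60% overlap Gm11788 on the other strand. Slc25a21, the oxodicarboxylate carrier, had 2 to 12 counts per library. Without mutant replicate 2 it passed the filter, through its 12 counts in mutant replicate 3 alone. The median over the then 4 carboxylate carriers was 0.66 and so includes a gene let in by its highest library.

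Genes around the citrate carrier were also measured. The list held 8 genes that make citrate (Cs), use it for lipid synthesis or supply NADPH and malate beside it (Me1, Idh1 and Mdh1). Mdh1 is shared with the shuttle list. Of the 8, 8 were higher at an unadjusted p under 0.05 (9.04% of all genes). DESeq2 called 8 higher (3.33% of all genes), and the median was 0.74. Acly, which splits citrate into acetyl-CoA, gave 0.79 (SE 0.120, edgeR adjusted p = 0.104). Fasn, fatty acid synthase, stood at 3919 to 5270 CPM in controls and at 8891 and 9049 CPM in mutants, a log2 fold change of 0.91 (SE 0.156, edgeR adjusted p = 0.104). Of the 4 enzymes of the malate-aspartate shuttle, 3 were higher at an unadjusted p under 0.05 (9.04% of all genes). Among them was Got1, a cytosolic transaminase, at 1.25 (SE 0.294), while its mitochondrial counterpart Got2 gave 0.07 (SE 0.140). Of the adipocyte markers in the same libraries, Fabp4 stood at 541 to 843 CPM in controls and at 1126 and 1238 CPM in mutants. Plin4, the most abundant of the 10, stood at 836 to 1279 CPM in controls and at 924 and 746 CPM in mutants. It was the 1 of the 10 with a negative log2 fold change, at -0.27 (SE 0.202).

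Slc25a20 carries acylcarnitines into the matrix for fatty acid oxidation (chromosome 9, 108662088 to 108684641). It stood at 47.6, 64.4 and 40.7 CPM in control replicates 1, 2 and 3 and at 96.7 and 86.9 CPM in mutant replicates 2 and 3. The groups were well separated, and control replicate 2 was the highest of the controls. The log2 fold change was 0.85 (SE 0.185, edgeR adjusted p = 0.116, DESeq2 adjusted p = 0.00276). Without control replicate 2 it was 1.07 and passed in edgeR (adjusted p = 0.0466), and across the other libraries left out it was 0.73 to 0.93. Control replicate 2 was also the control with the most adipocyte (4226 CPM) and brown adipocyte marker RNA (716 CPM), whose part in the result was not tested.

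The carnitine shuttle list held 7 genes, 6 enzymes and the plasma membrane carnitine transporter Slc22a5. At an unadjusted p under 0.05, 3 were higher (9.04% of all genes), and DESeq2 called 2 higher (3.33% of all genes). Cpt2, which moves acyl groups from carnitine to coenzyme A in the matrix, gave 0.74 (SE 0.189), and Crat, an acetyltransferase for carnitine, 0.69 (SE 0.141). Cpt1a, which makes acylcarnitines at the outer membrane, gave -0.05 (SE 0.136). Cpt1b, its muscle isoform, gave 0.70 (SE 0.281) at 2.47 CPM or less in every library. The difference between Cpt1a and Cpt2 was not tested.

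**Figure D3:**
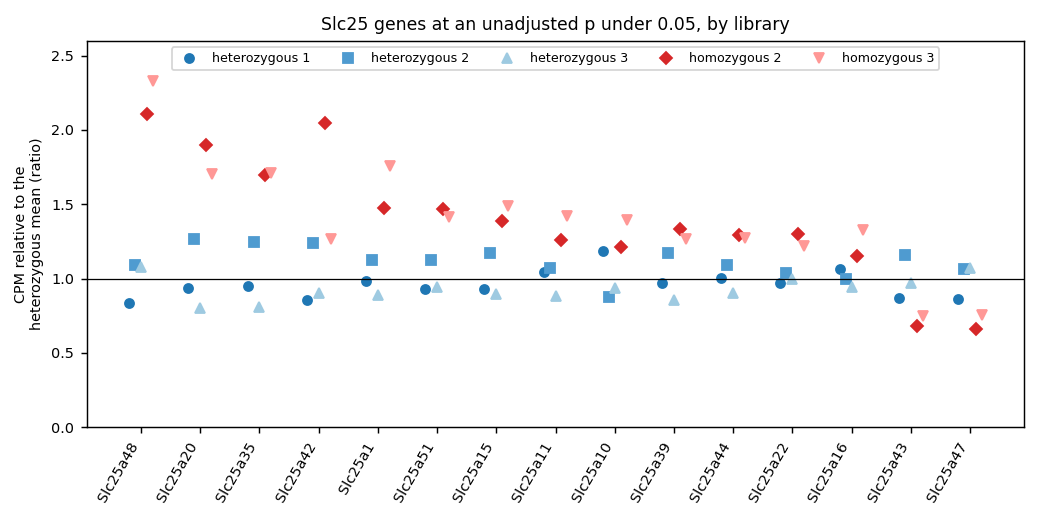
CPM of 15 Slc25 genes at an unadjusted p under 0.05, each divided by its heterozygous mean, 1 symbol per library. Both homozygous libraries lie above every heterozygous library in 13 genes (17.4% of all genes) and below in 2 genes (18.2% of all genes). The genes drawn were chosen by that p in the same libraries, which favours groups that do not overlap. For Slc25a42 mutant replicate 2 is at 2.05 and mutant replicate 3 at 1.26.

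Carriers of coenzymes had positive fold changes in 7 of 7 members (47.2% of all genes), with a median of 0.31. In each of the 7 the homozygous libraries lay above the heterozygous ones (17.4% of all genes). At an unadjusted p under 0.05, 4 of the 7 were higher (9.04% of all genes). Slc25a51, which brings NAD into mitochondria (chromosome 4, 45395923 to 45408766), stood at 104, 125 and 106 CPM in controls and at 164 and 158 CPM in mutants. Its log2 fold change of 0.53 (SE 0.111, edgeR adjusted p = 0.115, DESeq2 adjusted p = 0.00379) ranged from 0.48 to 0.63 with each library left out. Slc25a42, a carrier of coenzyme A, was at 20.3, 29.3 and 21.4 CPM in controls and at 48.4 and 29.9 CPM in mutants. Mutant replicate 2 was the highest, and its log2 fold change of 0.72 (SE 0.234, edgeR adjusted p = 0.213) was 0.33 without that library and 1.03 without mutant replicate 3.

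Slc25a16, assigned to coenzyme A, gave 0.31 (SE 0.106) and 0.20 without mutant replicate 3. Smaller values came from Slc25a26 (S-adenosylmethionine) at 0.28 (SE 0.124), Slc25a32 (folate and FAD) at 0.19 (SE 0.0966) and Slc25a17, a peroxisomal member, at 0.10 (SE 0.0835). Slc25a17 varied little, from 36.7 to 40.5 CPM over the 5 libraries.

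The 5 tested adenine nucleotide carriers and the phosphate carrier, the most abundant branch, gave 0 members at an unadjusted p under 0.05 in edgeR. At that p, 9.04% of all genes were higher and 6.75% lower, so 0 among so few members does not set this branch apart. Slc25a4 (chromosome 8, 46206797 to 46211284) stood at 240, 228 and 193 CPM in control replicates 1, 2 and 3 and at 210 and 272 CPM in mutant replicates 2 and 3. The groups overlapped, and the log2 fold change of 0.13 (SE 0.148, edgeR adjusted p = 0.728) was -0.07 without mutant replicate 3 and 0.30 without mutant replicate 2. Control replicate 3, the lowest, and mutant replicate 3, the highest, had the least and most skeletal muscle marker RNA (12.5 and 2728 CPM). The middle libraries did not follow that order. Mutant replicate 2, with 999 CPM of these markers, lay below control replicates 1 and 2, with 677 and 328 CPM. The part of skeletal muscle RNA in the result was not tested.

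Slc25a5 was at 76.4, 102 and 69.8 CPM in controls and at 97.6 and 101 CPM in mutants, with overlapping groups and a log2 fold change of 0.26 (SE 0.162). It was 0.45 without control replicate 2. Pseudogene transcripts share 8.33% of its 100-base words, which makes its counts uncertain. Slc25a3 was at 171, 177 and 169 CPM in controls and 164 and 195 CPM in mutants (log2 fold change 0.06, SE 0.104). The calcium-regulated carriers of ATP and phosphate, Slc25a23, Slc25a24 and Slc25a25, gave -0.07 (SE 0.104), -0.07 (SE 0.105) and 0.20 (SE 0.134). With each library left out, Slc25a24 ranged from -0.13 (without mutant replicate 3) to -0.00085 (without control replicate 1) and Slc25a25 from 0.10 (without control replicate 1) to 0.28 (without mutant replicate 2). Slc25a23, which holds the CArG box printed above, ranged from 65.9 to 78.3 CPM in controls and stood at 69.6 and 66.3 CPM in mutants. The sign for Slc25a23 turned in 3 alternatives, to 0.01 in each.

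The ATP synthase uses the ADP and phosphate that these carriers bring in. Its list held 16 genes, subunits and the inhibitor Atpif1. At an unadjusted p under 0.05, 9 of the 16 were higher (9.04% of all genes), with a median of 0.35. Atpif1 gave -0.29 (SE 0.139). Atp5b, a catalytic subunit, stood at 528 to 765 CPM in controls and 976 and 928 CPM in mutants. DESeq2 called 4 of the 16 higher (3.33% of all genes). The difference between these genes and the carriers was not tested.

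Carriers of amino acids had a median of 0.28 over 8 tested members. Of these, 3 were higher at an unadjusted p under 0.05 (9.04% of all genes). Slc25a44, a carrier of branched-chain amino acids that is known for its role in brown fat, was at 37.9, 41.2 and 34.2 CPM in controls and at 48.8 and 48.1 CPM in mutants (log2 fold change 0.36, SE 0.103, edgeR adjusted p = 0.181). Slc25a22, a glutamate carrier, gave 0.33 (SE 0.0902) and Slc25a15, the ornithine carrier, 0.52 (SE 0.154), each with groups that did not overlap. Slc25a12, the aspartate/glutamate carrier of muscle and brain, stood at 43.5, 38.8 and 38.2 CPM in controls and at 41.0 and 49.3 CPM in mutants. Its groups overlapped, and the log2 fold change of 0.17 (SE 0.115) was 0.03 without mutant replicate 3 and 0.29 without mutant replicate 2.

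Slc25a13, the liver form of the aspartate/glutamate carrier, gave 0.82 (SE 0.405) on 7 to 33 counts per library. Slc25a38, a glycine carrier for heme synthesis, gave 0.03 (SE 0.134), Slc25a29, a carrier of basic amino acids, -0.00 (SE 0.143) and Slc25a2, an ornithine carrier, 0.22 (SE 0.315). The groups of these last 3 genes overlapped.

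The paired carriers of glutathione, pyrimidine nucleotides and iron, 2 tested members each, held 1 member at an unadjusted p under 0.05. At that p, 9.04% of all genes were higher and 6.75% lower, and so few members cannot set these groups apart from all genes. Slc25a39 was at 51.2, 61.7 and 44.8 CPM in controls and at 70.0 and 66.6 CPM in mutants, a log2 fold change of 0.38 (SE 0.139, edgeR adjusted p = 0.261). Its paralog Slc25a40 was at 20.4, 17.7 and 20.9 CPM and at 19.1 and 19.996 CPM (log2 fold change -0.01, SE 0.112). Whether these paralogs differ was not tested. Of the pyrimidine nucleotide carriers, Slc25a36 was at 101, 104 and 109 CPM in controls and at 101 and 114 CPM in mutants. Slc25a33 was at 8.15, 8.72 and 13.8 CPM and at 11.4 and 11.5 CPM. Its highest value was control replicate 3, and its log2 fold change of 0.17 (SE 0.234) was 0.46 without that library and 0.03 without control replicate 1. Its counts are uncertain, since 14.9% of its exonic bases overlap Gm13068 on the other strand and 10.2% of its 100-base words are shared with that gene.

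Mitoferrin 1, Slc25a37, which imports iron in red cell precursors, was at 26.7, 28.8 and 27.4 CPM in controls and at 31.6 and 30.01 CPM in mutants (log2 fold change 0.16, SE 0.0915, with 6.33% of exonic bases overlapping genes on the other strand). Mitoferrin 2, Slc25a28, the form of other tissues, was at 19.0, 17.9 and 19.97 CPM and at 19.6 and 17.7 CPM (-0.02, SE 0.107). The 5 erythrocyte markers summed to 37.9 to 297 CPM in controls and to 23.9 and 28.9 CPM in mutants, and 5 of 5 were lower at an unadjusted p under 0.05. Of 11 genes of iron-sulphur and heme synthesis, 3 were higher and 1, the erythroid Alas2, was lower at an unadjusted p under 0.05. At that p, 9.04% of all genes were higher and 6.75% lower.

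The 3 relatives of uncoupling proteins within the rule gave 0 members at an unadjusted p under 0.05. With 9.04% of all genes higher and 6.75% lower at that p, 0 among so few does not set them apart. Slc25a27 was at 15.1, 14.7 and 16.2 CPM in controls and at 18.3 and 16.1 CPM in mutants, and Slc25a30 at 12.7, 14.0 and 12.2 CPM and at 13.5 and 11.5 CPM. The log2 fold change of Slc25a27 was 0.17 (SE 0.112), 0.07 without mutant replicate 2 and 0.26 without mutant replicate 3. Slc25a14 gave -0.12 (SE 0.233), with mutant replicate 2 at 3.00 and mutant replicate 3 at 4.85 CPM.

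The uncoupling proteins proper, which carry other symbols, gave larger values. Ucp1, the proton carrier of brown fat, stood at 152, 337 and 87.5 CPM in controls and at 582 and 569 CPM in mutants. Ucp3, the form of muscle and brown fat, was at 14.1, 19.99 and 9.47 CPM and at 27.2 and 35.7 CPM (log2 fold change 1.11, SE 0.282, edgeR adjusted p = 0.148). Ucp2 gave 0.64 (SE 0.170). Mtch2, an insertase of the outer membrane, was at 99.0, 109 and 101 CPM and at 137 and 142 CPM (log2 fold change 0.44, SE 0.0898, edgeR adjusted p = 0.115), while Mtch1 gave 0.12 (SE 0.0944). DESeq2 called Ucp2, Ucp3 and Mtch2. It did not call Ucp1 (adjusted p = 0.234), whose heterozygous libraries varied widely.

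Among the members without a settled substrate, the largest differences of the family lay in both directions. Slc25a48, linked to choline uptake (chromosome 13, 56438355 to 56474239), stood at 0.769, 1.01 and 0.995 CPM in controls and at 1.94 and 2.15 CPM in mutants, or 25 to 34 and 55 and 70 counts. Its log2 fold change of 1.15 (SE 0.248, edgeR adjusted p = 0.116, DESeq2 adjusted p = 0.0437) was the highest among the 42 tested members, at a level near the filter. Slc25a35 (chromosome 11, 68968131 to 68974365) was at 10.6, 13.8 and 8.99 CPM and at 18.9 and 19.0 CPM (log2 fold change 0.76, SE 0.180, edgeR adjusted p = 0.132, DESeq2 adjusted p = 0.0126). Of its exonic bases, 31.3% overlap Rangrf on the other strand, and the strand setting of the counting is not given in the sources used here. Its value is therefore uncertain, while Rangrf itself stood at 2.58 to 3.62 CPM with a log2 fold change of -0.27 (SE 0.194).

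Slc25a47, a gene best known from liver (chromosome 12, 108836046 to 108856815), was at 7.72, 9.58 and 9.63 CPM in controls and at 5.90 and 6.79 CPM in mutants, a log2 fold change of -0.50 (SE 0.164, edgeR adjusted p = 0.220). Slc25a43, whose substrate is unassigned (chromosome X, 36743659 to 36777202), was at 4.95, 6.61 and 5.53 CPM and at 3.89 and 4.27 CPM (log2 fold change -0.48, SE 0.189, edgeR adjusted p = 0.282). They were the 2 members lower at an unadjusted p under 0.05, and their homozygous libraries lay below the heterozygous ones. With each library left out, Slc25a47 ranged from -0.60 to -0.40 and Slc25a43 from -0.57 to -0.34.

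Slc25a46, an outer membrane protein of mitochondrial fission, was at 44.9, 46.97 and 46.1 CPM in controls and at 48.7 and 53.2 CPM in mutants (log2 fold change 0.15, SE 0.0868). The value was 0.08 without mutant replicate 3 and 0.21 without mutant replicate 2, and 7.06% of its exonic bases overlap B930094E09Rik on the other strand. Slc25a34 was at 22.1, 23.4 and 13.2 CPM and at 26.7 and 18.0 CPM, lowest in control replicate 3, and its log2 fold change of 0.19 (SE 0.268) was -0.12 without mutant replicate 2. Slc25a45 and Slc25a53 gave 0.14 (SE 0.171) and 0.05 (SE 0.168).

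**Figure D4:**
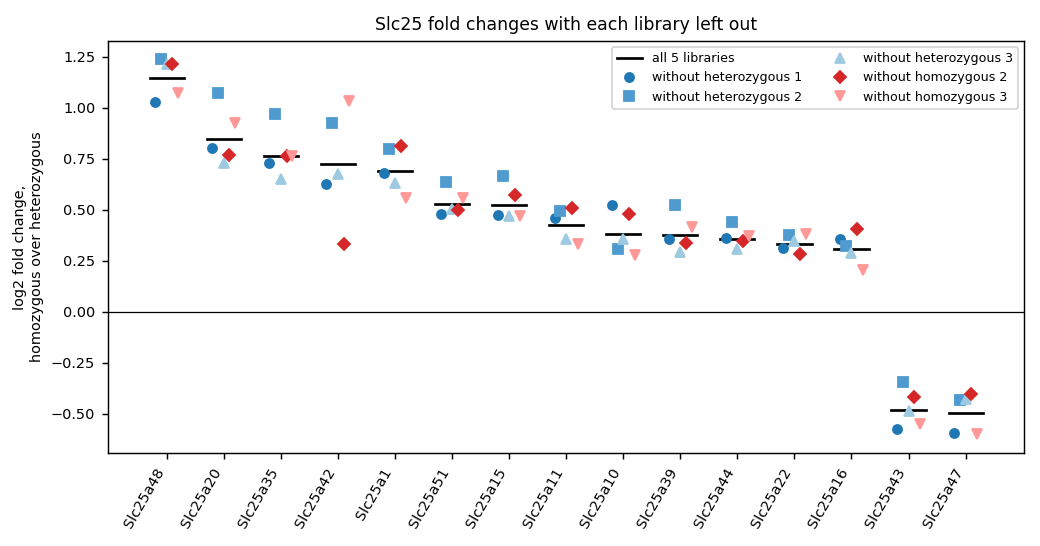
log2 fold change of 15 Slc25 genes at an unadjusted p under 0.05, with all 5 libraries (horizontal lines) and with each library left out (symbols). Each gene keeps its sign, which was close to fixed in advance because the groups of these genes did not overlap. Slc25a42 moves most, from 0.33 without mutant replicate 2 to 1.03 without mutant replicate 3.

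Over the libraries left out in turn, Slc25a1, Slc25a20, Slc25a35, Slc25a48 and Slc25a51 had an unadjusted p under 0.05 in 5 of 5 fits. Slc25a11, Slc25a15, Slc25a16, Slc25a22 and Slc25a44 had it in 4 of 5, Slc25a42 and Slc25a47 in 3, Slc25a10 and Slc25a39 in 2, and Slc25a43 in 1. Slc25a5, Slc25a13 and Slc25a33, which missed that p with all 5 libraries, had it in 1 fit each.

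Other transport genes of mitochondria gave a median near that of the family. Of 14 transporters outside the family, 5 were higher and 1 lower at an unadjusted p under 0.05, with a median of 0.19. At that p, 9.04% of all genes were higher and 6.75% lower. Mpc1 and Mpc2, the pyruvate carrier, gave 0.61 (SE 0.117) and 0.74 (SE 0.192), and DESeq2 called both. Vdac1, the main pore of the outer membrane, gave 0.32 (SE 0.127) and Vdac2 0.11 (SE 0.0889). Sfxn3, a serine transporter, gave -0.29 (SE 0.122), while Sfxn1, another serine transporter, gave 0.43 (SE 0.0964) and was called higher by DESeq2. Of 12 genes of protein import, 4 were higher at an unadjusted p under 0.05 (9.04% of all genes), with a median of 0.22. Timm23, the channel of the inner membrane, gave 0.54 (SE 0.154), Immt, the organizer of cristae, 0.37 (SE 0.103), and the receptor Tomm70a -0.03 (SE 0.0973).

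**Figure D5:**
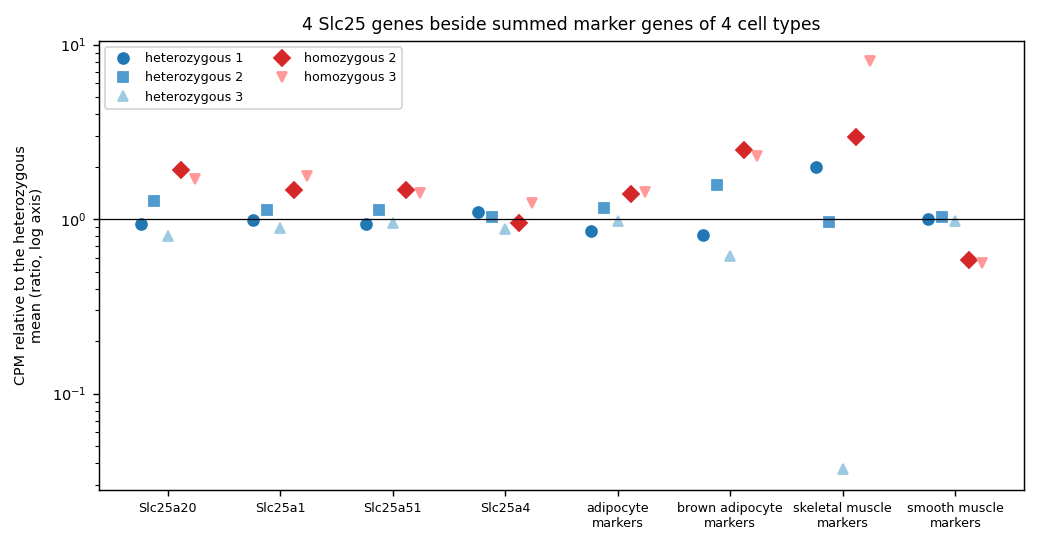
CPM relative to the heterozygous mean (log axis) of Slc25a20, Slc25a1, Slc25a51 and Slc25a4 and of the summed markers of 4 cell types, 1 symbol per library. Adipocyte, brown adipocyte and skeletal muscle markers lie above 1 in both homozygous libraries (1.39 and 1.43, 2.48 and 2.31, 2.95 and 8.04), and smooth muscle markers lie below (0.587 and 0.562).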

How the data were processed

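The submitters' processing notes name the tools STAR 2.7.0f, fastp 0.20.0 and Subread 1.6.4 (featureCounts) and the build GRCm38. The annotation release is not given in the sources used here. The deposited values are raw counts, and the table's 5 columns were matched to the labels by sample description. Every pair of libraries differed beyond sampling noise. After filterByExpr and TMM scaling, edgeR 4.0.16 in R 4.3.3 ran its quasi-likelihood F test of group on 18192 genes, with Benjamini-Hochberg adjustment over all genes and a threshold of 0.05. The SE is the log2 fold change divided by the square root of F. The fit had 3 residual degrees of freedom, and the script was tested on simulated data.

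The alternatives comprised DESeq2 1.42.0, limma-voom (limma 3.58.1), further size factors and filters, a replicate block, leaving out each library, and leaving out mitochondrially encoded genes. A crossed block was added after seeing the data. Exon lengths and coordinates came from GENCODE mouse release 21 (54402 of 55453 symbols matched a single gene), and shared words are 100-base words of a gene's transcripts found in other genes' transcripts on either strand. Promoters are RefSeq's on GRCm38.p6.

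The members and lists were chosen with earlier results of these data known. Values in every library are given for Slc25a4, Slc25a1, Slc25a20, the 2 most abundant tested members per substrate group, and up to 6 members per direction with the largest change at an unadjusted p under 0.05. From the other lists, the 2 most abundant genes and up to 2 per direction with the largest change were eligible. Ucp2, Mtch1, Got2, Acly, Atpif1, Sfxn1, Pvalb, Rangrf and Rnf167 fall outside this rule and were named after their values were seen. For 1 member, included in the counts and medians, values are not reported here. Floors cover counting error only. The p-values set the group difference against the spread between mice within the groups, 3 controls and 2 mutants.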

Additional observations from a re-analysis of the deposited data

How the results depend on the processing

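The family median stayed between 0.17 and 0.23 over the alternatives, and the counts of members higher at an unadjusted p under 0.05 between 11 and 16 where no library was left out. Members called at an adjusted p under 0.05 were 5 with DESeq2 and 7 with no low-count filter, and 0 in the other fits with all libraries; the cause was not tested. With each library left out, 0 to 1 members were called (0% to 0.829% of all genes, the upper value without control replicate 2), 8 to 14 were higher (4.85% to 9.59%) and 0 to 2 lower (3.45% to 6.52%) at an unadjusted p under 0.05. The replicate numbers mark no shared source in the labels. The correlation of the differences between replicates 2 and 3 of the groups was -0.13. At an unadjusted p under 0.05 the replicate block gave 11 members higher (8.18% of all genes) and 1 lower (4.69%), and the crossed pairing, chosen after seeing the data, 12 higher (9.42%) and 2 lower (7.26%). Both called 0 members at an adjusted p under 0.05, and 5 and 0 of all genes.

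With each library left out, the carboxylate median ranged from 0.33 to 0.66, the upper end with 4 instead of 3 genes. The added gene, Slc25a21, passed the filter through mutant replicate 3 alone. Over the libraries left out in turn, medians ranged from -0.029 to 0.28 (adenine nucleotide), 0.24 to 0.38 (amino acid) and -0.074 to 0.073 (uncoupling-protein-like). Single genes near 0 turned sign there: Slc25a2 (-0.069 to 0.47), Slc25a3 (-0.073 to 0.17), Slc25a4 (-0.070 to 0.30), Slc25a14 (-0.51 to 0.17), Slc25a23 (-0.10 to 0.011), Slc25a28 (-0.099 to 0.051), Slc25a29 (-0.048 to 0.046), Slc25a30 (-0.17 to 0.061), Slc25a34 (-0.12 to 0.45), Slc25a36 (-0.046 to 0.12), Slc25a38 (-0.051 to 0.16), Slc25a40 (-0.065 to 0.051) and Slc25a53 (-0.027 to 0.16). Under the replicate block and the crossed block Slc25a23 gave 0.0099 and 0.0096, Slc25a38 gave -0.049 and -0.048, and Slc25a40 gave 0.022 and 0.023. Slc25a29 gave 0.0050 with DESeq2 size factors, 0.017 with upper-quartile factors, 0.00061 with DESeq2, 0.0025 with limma-voom, 0.012 with no filter and with the stricter filter, and 0.014 without mitochondrially encoded genes. Slc25a40 gave 0.0084 with upper-quartile factors, 0.0047 with no filter, 0.0041 with the stricter filter and 0.0059 without mitochondrially encoded genes. None of the 16 members at an unadjusted p under 0.05 turned sign. For the libraries left out this was close to fixed in advance, since groups that do not overlap stay apart without 1 library. Depth limits Slc25a2, Slc25a13 and Slc25a48, with 7 to 70 counts per library.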
